A study of Mus musculus with 16 samples.

Results

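Macrophages grown from the bone marrow of Sirt3 K223R mice and stimulated with IL-4 were compared with wild-type (WT) macrophages stimulated in the same way. Sirt3 is an NAD-dependent protein deacetylase of the mitochondrial matrix. In K223R an arginine takes the place of a lysine, a residue known in the mouse as an attachment site of the small ubiquitin-like modifier SUMO, which the protease Senp1 can remove. IL-4 binds the IL-4 receptor, activates the transcription factor STAT6 and drives macrophages into the alternatively activated (M2) state, which is recognised by genes such as Arg1, Chil3, Retnla and Mrc1.

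The comparison rested on 8 of the 16 RNA-seq libraries of the study, 4 from K223R cells with IL-4 and 4 from WT cells with IL-4. The other 8 libraries came from untreated K223R cells (4) and untreated WT cells (4). All cells came from C57BL/6 mice at a postnatal age of 8 weeks and were differentiated for 7 days with the growth factor M-CSF at 20 ng/ml. The IL-4 groups then received 20 ng/ml IL-4 for 24 hours. The labels do not say how the allele was made, whether the mice carried 1 or 2 copies, or whether the replicates came from separate mice, so p-values measure the spread between these libraries, which may be technical. Of the 10920 genes with values, the 9531 with at least 1 FPKM in at least 4 of the 8 IL-4 libraries were compared. The values are read as FPKM, which scales fragment counts by transcript length and by library, since the file headers name no unit, and the sequencing depth behind them is unknown. Differences are K223R minus WT on the log2(FPKM + 1) scale, which understates the change of low genes. A gene was called at a Benjamini-Hochberg adjusted p under 0.05 from limma's moderated test over all 9531 genes, fitted on all 16 libraries, and is said to have risen or fallen only then.

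The substitution itself cannot be read from expression values. The codon of that number encodes lysine in 1 of the 4 Sirt3 transcripts of GENCODE M21 that reach it, ENSMUST00000147331.8 with 258 coding codons, and the labels do not say which isoform the number refers to. The codon lies in exon 5 of that transcript at chr7:140869594-140869596 on the minus strand (GRCm38). That it is the substituted site is inferred from its number and its lysine. It is shown in capitals in the reference sequence of the transcript, since the allele is named after a lysine of that number:
Sirt3 codon: actggcgttgtgAAAcccgacattgtg

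Sirt3 mRNA (ENSMUSG00000025486.17, chr7:140863666-140882309, minus strand) was low and alike in range in both groups. It had 1.42, 1.18, 1.36 and 1.32 FPKM in the K223R IL-4 libraries, against 1.36, 1.06, 1.63 and 1.39 FPKM in the WT IL-4 libraries. The groups overlapped, and the means of 1.32 ± 0.101 and 1.36 ± 0.233 FPKM (SD, n = 4 each) gave a 2-sided exact permutation p of 0.8, where the smallest possible p is 0.0286. The log2 difference was -0.019 with a 95% interval of -0.18 to 0.14. Its sign turned positive after median-ratio scaling, quantile normalization, or without K223R IL-4 replicate 2 or WT IL-4 replicate 3.

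The 8 IL-4 libraries separated by genotype along the first principal component of their log2 values, which held 33.1% of the variance. K223R IL-4 replicate 2 stood apart from the other K223R IL-4 libraries on the second component (21.3% of the variance) and correlated least with its own group (median r 0.979, against 0.985 to 0.991 for the other libraries of the series). Where leaving it out, median-ratio scaling of the libraries or a fit of the IL-4 libraries alone moved the count of a gene list by over 1.5 times in either direction, those counts stand in brackets behind it. Summed values ranged from 288143 to 306581 FPKM over the 16 libraries. The 10 most abundant genes held 17.8% to 21.6% of the summed FPKM in K223R IL-4 libraries and 15.6% to 16.7% in WT IL-4 libraries. The 10 listed macrophage markers, 11 gene identifiers since identifiers can share a symbol, were all expressed. Their summed levels were 11250 to 13130 FPKM in K223R IL-4 libraries and 11220 to 12300 FPKM in WT IL-4 libraries. The K223R files alone carry an added gene-type column, so a difference in file preparation and the genotype cannot be told apart.

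Of the 9531 genes, 493 rose (5.17%) and 972 fell (10.2%) in K223R IL-4 cells, 1465 in all (15.4%). Every count of a gene list below is to be read beside these shares. The lists were chosen with earlier results of these data known, so their counts and medians are description and support nothing. Most differences were small: the median size was 0.33 for genes that rose and 0.31 for genes that fell, and 29 genes rose (0.304%) and 15 fell (0.157%) by 2-fold or more. All 4 K223R libraries lay above all 4 WT libraries for 563 genes (5.91%) and below them for 1179 genes (12.4%). The balance of directions depended on scaling. The median difference over all genes was -0.05, and 33.65% of calls were higher. With median-ratio scaling, which brought that median to 0.0024, 801 genes rose and 605 fell, so that 56.97% of calls were higher. With quantile normalization 717 rose and 711 fell (50.21% higher). With the IL-4 libraries fitted alone 252 rose and 430 fell, and 675 of these 682 calls were among the 1465 with the same direction. Without K223R IL-4 replicate 2, 580 rose and 973 fell.

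**Figure D1:**
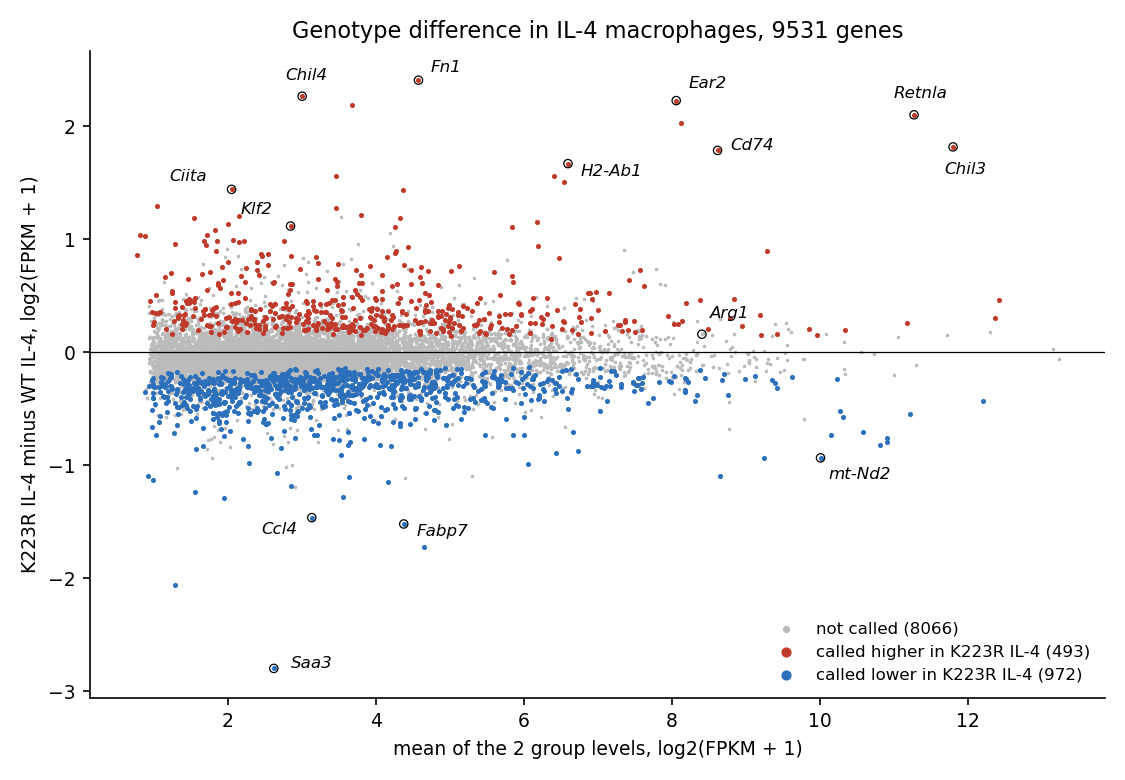
Genotype difference against level for 9531 genes in IL-4 macrophages. The horizontal axis is the mean of both group levels and the vertical axis is K223R IL-4 minus WT IL-4, both on the log2(FPKM + 1) scale, with 493 genes called higher in red and 972 called lower in blue. Chil3, Retnla, Ear2, Fn1 and the MHC class II genes lie at the top, Saa3 at the bottom, and Arg1 close to 0.

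Among the secreted and surface proteins by which alternative activation is recognised, a group led by Chil3, Retnla and Fn1 rose in K223R cells, and Arg1 and Mrc1 did not pass the test. Of 25 tested IL-4 effector genes 9 rose (Chil3, Chil4, Retnla, Ear2, Rnase2a, Fn1, Mgl2, Apol7c and Ccl24), 3 fell (Tgm2, Hbegf and Ccl22) and 13 did not pass the test. The list's median difference was 0.30, against -0.05 over all genes. As the list was chosen with earlier results of these data known, its count and median are description only. Chil3 (ENSMUSG00000040809.10, chr3:106147554-106167564, minus strand) encodes the secreted chitinase-like protein Ym1. It had 6768, 6055, 6865 and 6845 FPKM in the K223R IL-4 libraries, against 2309, 1439, 2112 and 1769.7 FPKM in the WT IL-4 libraries. The groups were far apart, with means of 6633 ± 388 and 1908 ± 384 FPKM (SD, n = 4 each) and a log2 difference of 1.82 ± 0.24 (SE; adjusted p = 0.000218). Its neighbour Chil4, encoding Ym2, was far less abundant. Chil4 had 15.1, 23.1, 13.9 and 14.7 FPKM in the K223R IL-4 libraries, against 2.45, 2.43, 3.28 and 2.36 FPKM in the WT IL-4 libraries. No library overlapped, and the log2 difference was 2.27 ± 0.12 (SE; adjusted p = 7.39e-08). Chil3 and Chil4 are close paralogs whose reads could be split between them.

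Retnla (ENSMUSG00000061100.3, chr16:48842552-48844461, plus strand) encodes the secreted protein RELM-alpha (Fizz1). It had 6049, 3832, 5997 and 4429 FPKM in the K223R IL-4 libraries, against 714, 1389.7, 1379.5 and 1317 FPKM in the WT IL-4 libraries. Every K223R library exceeded every WT library, and WT replicate 1 was the lowest of the 8. The log2 difference was 2.10 ± 0.45 (SE; adjusted p = 0.00595). The eosinophil-associated ribonuclease Ear2 had 701, 323, 769.6 and 538 FPKM in the K223R IL-4 libraries, against 97, 98.2, 171 and 116 FPKM in the WT IL-4 libraries, a log2 difference of 2.23 ± 0.24 (SE; adjusted p = 4.42e-05). Rnase2a, another member of that ribonuclease family, had 745, 224, 758 and 596 FPKM in K223R and 87.5, 127, 163 and 147 FPKM in WT IL-4 libraries. In both ribonuclease genes K223R replicate 2 was the lowest K223R library and still lay above all WT libraries, and reads shared between family members make the split between them uncertain. Rnase2a differed by 2.03 ± 0.34 (SE; adjusted p = 0.00145). The tested eosinophil markers, 2 of 5 listed, summed to 9.98 to 11.4 FPKM in K223R IL-4 libraries and 9.54 to 18.2 FPKM in WT IL-4 libraries. Rnase2a was not called with a pseudocount of 0.1.

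Fn1 (ENSMUSG00000026193.15, chr1:71585520-71653200, minus strand), the gene of the matrix glycoprotein fibronectin, showed the largest rise of all called genes on the log2(FPKM + 1) scale. It had 63.3, 32.3, 74.7 and 47.1 FPKM in the K223R IL-4 libraries, against 5.72, 8.69, 12.8 and 9.84 FPKM in the WT IL-4 libraries. The ranges were separate although K223R replicate 2 was again the lowest of its group, and the log2 difference was 2.41 ± 0.23 (SE; adjusted p = 2.02e-05). The galactose-binding lectin Mgl2 (CD301b) had 96.6, 57.6, 100.0 and 80.2 FPKM in K223R and 33.9, 50.8, 31.1 and 36.5 FPKM in WT IL-4 libraries (1.11, adjusted p = 0.000448). Apol7c, of the apolipoprotein L family, had 24.7, 10.6, 27 and 20.1 FPKM in K223R and 8.91, 9.07, 6.74 and 6.88 FPKM in WT IL-4 libraries (1.21, adjusted p = 0.00111). The chemokine Ccl24 (eotaxin-2) had 5.46, 2.03, 6.25 and 3.5 FPKM in K223R and 1.59, 1.29, 1.3 and 1.32 FPKM in WT IL-4 libraries (1.08, adjusted p = 0.00277). The groups did not overlap for these genes, and in all of them K223R replicate 2 was the lowest K223R IL-4 library.

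Arg1, the arginase that defines alternative activation in the mouse, had 355, 361, 340.0 and 369 FPKM in the K223R IL-4 libraries, against 355, 354, 300.5 and 271 FPKM in the WT IL-4 libraries. The groups overlapped, the log2 difference was 0.16 (95% interval -0.39 to 0.71) and the adjusted p was 0.712. The mannose receptor gene Mrc1 had 199, 198, 222 and 215 FPKM in K223R and 209, 242, 182 and 220.2 FPKM in WT IL-4 libraries, with a difference of -0.027 (95% interval -0.29 to 0.24; adjusted p = 0.907) that turned positive after median-ratio scaling or without WT IL-4 replicate 2. Tgm2 (ENSMUSG00000037820.15, chr2:158116402-158146436, minus strand), a transglutaminase, moved down. It had 77.5, 88.6, 69.2 and 74.2 FPKM in the K223R IL-4 libraries, against 141, 137, 149 and 141 FPKM in the WT IL-4 libraries, without overlap (-0.87, adjusted p = 2.47e-05). The growth factor gene Hbegf (-0.48, adjusted p = 0.0119) and the chemokine gene Ccl22 (-0.37, adjusted p = 0.05) also fell, Ccl22 at levels of 0.925 to 1.49 FPKM in K223R and 1.21 to 2.34 FPKM in WT IL-4 libraries that overlapped. In a fit of the IL-4 libraries alone, Ccl22 (adjusted p = 0.148) missed the threshold. Median-ratio scaling ended the call of Ccl22 (adjusted p = 0.0689). Quantile normalization ended the call of Ccl22 (adjusted p = 0.091). Ccl22 was not called with a pseudocount of 0.1. Ccl22 was not called with no filter on low values. The call of Ccl22 was lost without K223R IL-4 replicate 1, 2 or 4 or WT IL-4 replicate 1, 3 or 4 (adjusted p up to 0.138).

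**Figure D2:**
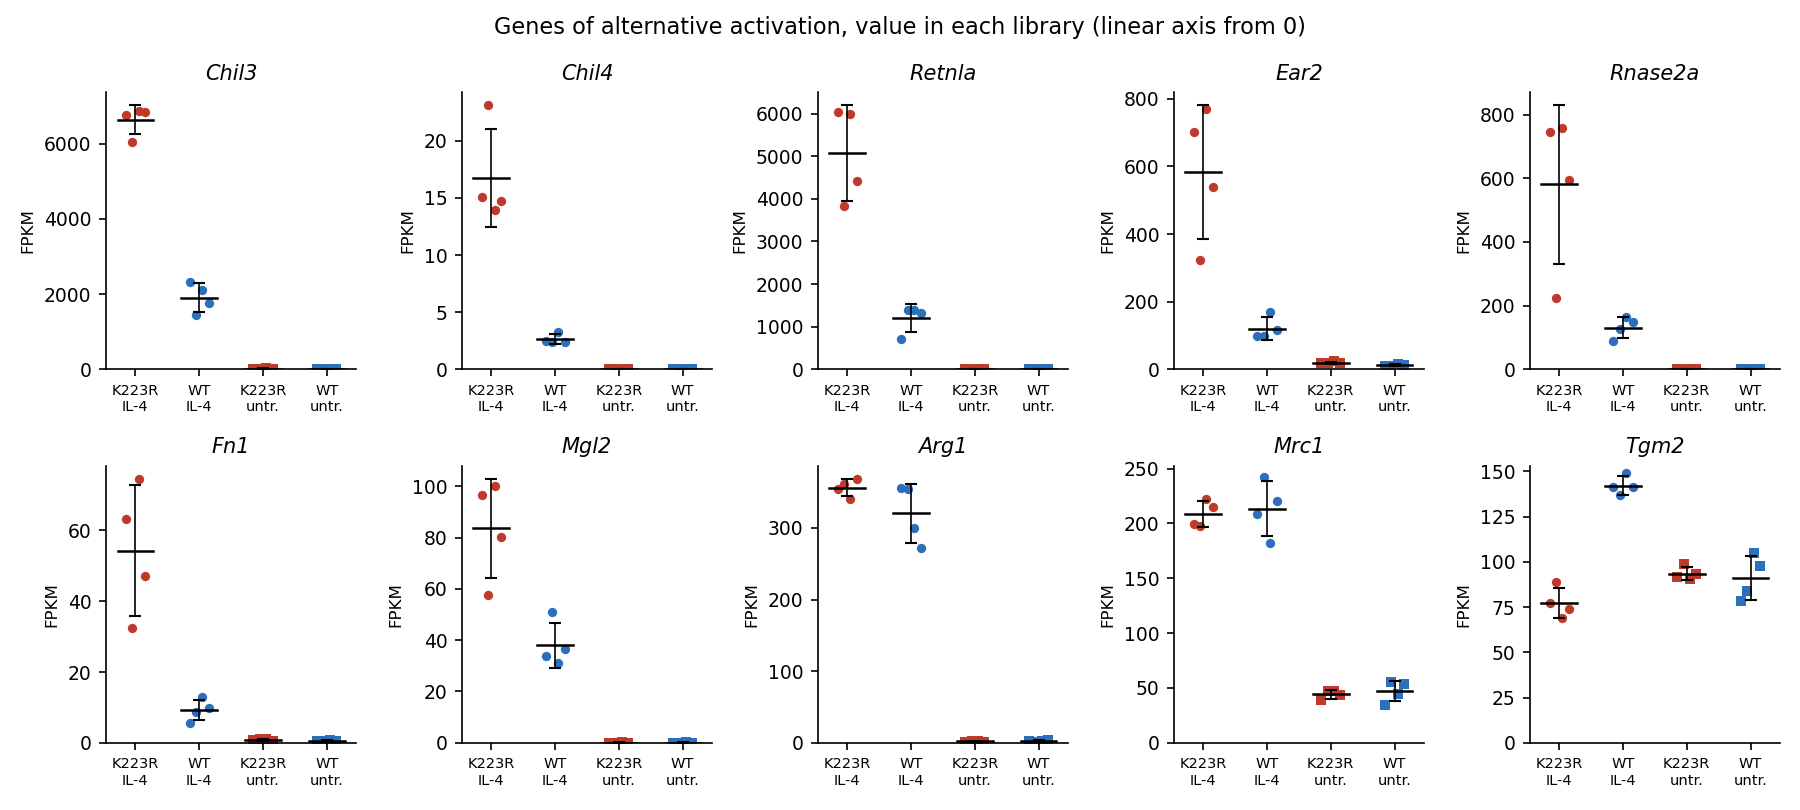
The 10 plotted genes of alternative activation in each of the 16 libraries. Each panel has its own linear FPKM axis from 0, points are libraries, and bars give the mean and SD of 4 libraries per group. Chil3, Chil4, Retnla, Ear2, Rnase2a, Fn1 and Mgl2 lie higher in K223R than in WT IL-4 cells, Arg1 and Mrc1 overlap, and Tgm2 lies lower.

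STAT6 dimers bind the letters TTC and GAA with 4 bases between them, and a search of both strands found them in the windows from 250 bases before to 50 after a RefSeq start (GRCm38.p6) of 8.01% of 27025 genes. Of the 7 called-higher effector genes with a window in the table, 2 held a match, Retnla and Apol7c, as did 3 of the 11 others. A match describes letters and is not a binding site. The start of Retnla in GENCODE M21 lies 58 bases before the RefSeq start. The stretch before both starts (chr16:48842359-48842550, plus strand) is shown because Retnla was among the largest changes, with the match in capitals:
Retnla promoter: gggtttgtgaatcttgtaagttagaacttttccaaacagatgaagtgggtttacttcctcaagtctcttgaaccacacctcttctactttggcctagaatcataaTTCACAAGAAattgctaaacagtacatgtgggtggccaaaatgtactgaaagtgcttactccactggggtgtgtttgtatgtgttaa

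Of 21 tested genes of the receptor and its signal chain 2 rose and 1 fell (none higher and 1 lower with the IL-4 libraries alone), with a median of 0.06, a share near the 15.4% called among all genes. Il4ra, the receptor chain that binds IL-4, had 12.9 to 16.5 FPKM in K223R and 12.5 to 14.5 FPKM in WT IL-4 libraries (0.14, adjusted p = 0.292). Stat6 had 50.9 to 55.6 and 54.7 to 56.2 FPKM (-0.051, adjusted p = 0.497), a difference that was 0.01 after median-ratio scaling. Both were singled out after their values were seen, and both pairs of ranges overlapped. The kinase gene Tyk2 rose (0.20, adjusted p = 0.0136), and Il13ra1, the partner chain of the receptor for IL-4 and IL-13, fell (-0.46, adjusted p = 0.0042). Among 19 transcription factors and cofactors of alternative activation 3 rose and 2 fell (3 higher and 1 lower after median-ratio scaling or without K223R replicate 2, none and 1 with the IL-4 libraries alone). Irf4, a factor needed for the M2 programme in mice, had 10.7, 5.59, 10.2 and 8.76 FPKM in K223R and 5.66, 5.72, 6.02 and 6.66 FPKM in WT IL-4 libraries (0.45, adjusted p = 0.0323), Ppargc1b, a coactivator of mitochondrial and oxidative genes, differed by 0.44 ± 0.10 (SE; adjusted p = 0.00895), and Kdm6b, the H3K27 demethylase Jmjd3, by 0.37 ± 0.10 (SE; adjusted p = 0.0214). The ranges overlapped in each of the 3. The clock repressor gene Bhlhe41 fell (-0.69, adjusted p = 0.00171). Without the untreated libraries in the fit, Tyk2 (adjusted p = 0.0771), Irf4 (adjusted p = 0.134), Ppargc1b (adjusted p = 0.0675) and Kdm6b (adjusted p = 0.103) were no longer called. Irf4 was not called with a pseudocount of 0.1. Irf4 was not called without K223R IL-4 replicate 1, 3 or 4 or WT IL-4 replicate 1, 2 or 3 (adjusted p up to 0.0928). Leaving out a library ended the call of Kdm6b, namely K223R IL-4 replicate 3 or 4 or WT IL-4 replicate 3 or 4 (adjusted p up to 0.0656).

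Klf2, a Kruppel-like factor known as a brake on inflammatory gene expression in myeloid cells, was 1 of 10 tested members of its family and the one that passed the test (2 higher and none lower after median-ratio scaling). It had 10.8, 9.03, 9.76 and 8.85 FPKM in the K223R IL-4 libraries, against 4.44, 3.7, 3.76 and 3.64 FPKM in the WT IL-4 libraries. The groups were separate and tight, with a log2 difference of 1.12 ± 0.091 (SE; adjusted p = 1.11e-05). In untreated cells Klf2 was not called, with 2.34, 2.32, 2.74 and 2.15 FPKM in K223R and 3.74, 3.06, 2.74 and 2.54 FPKM in WT libraries (log2 difference -0.24, adjusted p = 0.615), and the interaction of genotype and IL-4 was 1.36 (adjusted p = 0.000129).

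The genes that present peptides on MHC class II rose together. Of 9 tested members 8 rose, and the median difference was 1.44, against -0.05 over all genes. Ciita (ENSMUSG00000022504.9, chr16:10488178-10527564, plus strand), the master coactivator of the class II promoters, had 8.46, 2.74, 7.77 and 5.11 FPKM in the K223R IL-4 libraries, against 0.999, 1.51, 1.76 and 1.5 FPKM in the WT IL-4 libraries. The groups did not overlap, K223R replicate 2 was the lowest of its group, and the log2 difference was 1.44 ± 0.22 (SE; adjusted p = 0.00059). In untreated cells Ciita was lower but also without overlap, at 0.621, 0.403, 0.806 and 0.526 FPKM in K223R libraries. The untreated WT libraries had 0.0873, 0.204, 0.273 and 0.264 FPKM (0.39, adjusted p = 0.77, not called), levels at which this scale compresses differences. Cd74, the invariant chain that escorts class II molecules, had 1012, 437, 907 and 590.4 FPKM in the K223R IL-4 libraries, against 128, 218, 238 and 247 FPKM in the WT IL-4 libraries. Here too every K223R library lay above every WT library (1.79, adjusted p = 0.00393). Of the genes for class II chains, H2-Ab1 had 259, 85.4, 234 and 131 FPKM in the K223R IL-4 libraries, against 33.5, 50.4, 67.6 and 54.3 FPKM in the WT IL-4 libraries. Its ranges were separate, with K223R replicate 2 closest to the WT libraries (1.67, adjusted p = 0.00398). H2-Aa (1.56, adjusted p = 0.00629) and H2-Eb1 (1.50, adjusted p = 0.00621) had the same order of K223R libraries.

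The peptide-loading chains H2-DMa (0.71, adjusted p = 0.0129) and H2-DMb1 (0.62, adjusted p = 0.0136) rose less, and K223R replicate 2 lay within the WT range of both. H2-DMb1 had 88.1, 47.3, 83.5 and 67.2 FPKM in K223R and 39.7, 46.4, 53.5 and 41.3 FPKM in WT IL-4 libraries. Ctss, cathepsin S, which degrades the invariant chain, had 5742, 6785, 5782 and 5156 FPKM in K223R and 4214, 4705, 5109 and 4977 FPKM in WT IL-4 libraries (0.30, adjusted p = 0.0178), and its difference was -0.21 after quantile normalization (adjusted p = 0.0681). The remaining member, H2-DMb2, did not pass the test with all libraries, whereas without K223R IL-4 replicate 2 all 9 members rose. With the IL-4 libraries alone 5 of the 9 were called. None of the 9 was called in the interaction of genotype and IL-4 treatment. A fit on the IL-4 libraries alone did not call H2-DMa (adjusted p = 0.0725), H2-DMb1 (adjusted p = 0.0801) and Ctss (adjusted p = 0.121). The call of Ctss was lost without WT IL-4 replicate 1 (adjusted p up to 0.0555). Of the 20 tested MHC class I genes 3 rose and 1 fell (4 higher and none lower after median-ratio scaling, 1 and none with the IL-4 libraries alone).

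Of 8 listed dendritic-cell markers 2 were tested, and their summed level was higher in K223R cells, at 389.8 to 414.3 FPKM in K223R IL-4 libraries and 269.2 to 304.6 FPKM in WT IL-4 libraries. Most of it was Itgax (CD11c), which macrophages also express, at 379 to 402 FPKM in K223R and 257 to 297 FPKM in WT IL-4 libraries (0.47, adjusted p = 0.00737). Batf3, a factor of dendritic-cell development, had 13.1, 11.2, 11.2 and 12 FPKM in K223R and 8.01, 9.26, 11.7 and 7.97 FPKM in WT IL-4 libraries (0.34, adjusted p = 0.12), with overlap. Their part in the class II result was not tested. In bulk libraries more cells of a type and more RNA per cell cannot be told apart.

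The Y box CTGATTGG, bound by the factor NF-Y, is an element of class II promoters. Searched on both strands, it occurred in the 300-base windows of 4.70% of genes, and in those of 2 of the 5 called class II genes with a window, H2-Aa and H2-Eb1. Both promoters are shown up to the first annotated start, chr17:34287828-34288073, minus strand and chr17:34305617-34305866, plus strand (GRCm38.p6), with the Y box in capitals, because both genes rose and had the same order of K223R libraries:
H2-Aa promoter: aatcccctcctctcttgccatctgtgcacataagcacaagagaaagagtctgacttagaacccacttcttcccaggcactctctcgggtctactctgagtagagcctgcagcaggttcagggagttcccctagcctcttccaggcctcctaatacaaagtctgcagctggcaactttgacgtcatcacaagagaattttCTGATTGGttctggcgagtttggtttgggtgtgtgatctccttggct
H2-Eb1 promoter: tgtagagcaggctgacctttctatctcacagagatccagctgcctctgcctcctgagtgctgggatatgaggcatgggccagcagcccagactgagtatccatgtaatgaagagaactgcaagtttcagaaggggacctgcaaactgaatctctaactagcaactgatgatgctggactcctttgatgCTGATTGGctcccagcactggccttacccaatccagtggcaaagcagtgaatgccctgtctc

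**Figure D3:**
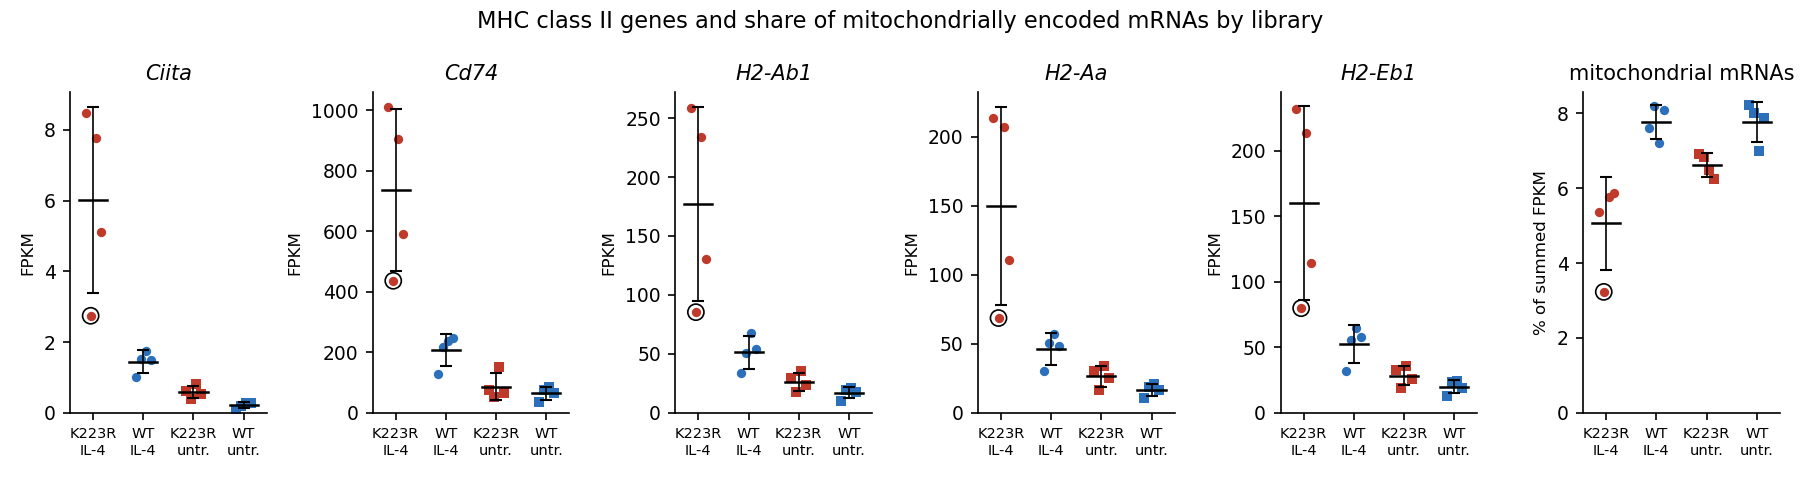
MHC class II genes and the mitochondrially encoded share in each of the 16 libraries. The first 5 panels give FPKM and the last the percentage of summed FPKM held by the 13 mitochondrially encoded mRNAs, with means and SD of 4 libraries and K223R IL-4 replicate 2 circled. The class II genes are higher, and the mitochondrial share lower, in K223R IL-4 libraries than in WT IL-4 libraries, and the circled library is the lowest K223R IL-4 library in every panel.

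Several transcripts of inflammatory activation fell in K223R IL-4 cells. Of 12 tested inflammatory chemokines 4 fell and 1 rose, and of 13 tested cytokines and mediators 5 fell and none rose, with a median of -0.51 for the second list. The monocyte attractant Ccl2 had 6.89, 5.2, 6.48 and 7.68 FPKM in the K223R IL-4 libraries, against 18.9, 18.1, 17.2 and 15 FPKM in the WT IL-4 libraries. Ccl4 (MIP-1 beta) had 4.07, 4.71, 3.14 and 5.29 FPKM in the K223R IL-4 libraries, against 14.7, 15, 11.6 and 12.8 FPKM in the WT IL-4 libraries. In both genes all K223R libraries lay below all WT libraries, with log2 differences of -1.28 ± 0.14 (SE; adjusted p = 6.71e-05) for Ccl2 and -1.46 ± 0.14 (SE; adjusted p = 2.39e-05) for Ccl4. Ccl3 (-1.10, adjusted p = 0.000106) and Ccl7 (-1.15, adjusted p = 0.00485) also fell. The chemokine gene Ccl9 rose to 535 ± 40.1 FPKM in K223R against 386 ± 40.8 FPKM in WT IL-4 libraries (SD, n = 4 each; adjusted p = 0.0127).

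The acute-phase gene Saa3 (ENSMUSG00000040026.8, chr7:46711998-46715700, minus strand) had the largest fall of all called genes on the log2(FPKM + 1) scale. It had 0.768, 1.34, 1.61 and 1.29 FPKM in the K223R IL-4 libraries, against 14.7, 12.4, 8.68 and 27.4 FPKM in the WT IL-4 libraries. The groups were far apart although the WT libraries varied widely among themselves (-2.80 ± 0.43, SE; adjusted p = 0.000692). Il1b was low, with 0.424, 0.154, 0.272 and 0.48 FPKM in K223R and 1.97, 1.84, 1.3 and 2.64 FPKM in WT IL-4 libraries (-1.13, adjusted p = 0.00274). No K223R library reached 1 FPKM, so Il1b entered the comparison only through the WT libraries, where it was high. Its call, which is part of the count of cytokines and mediators, is therefore description only. Tnf (-0.67, adjusted p = 0.00168), Il18 (-0.64, adjusted p = 0.00149) and Nfkbia, the inhibitor that NF-kappa B induces against itself (-0.48, adjusted p = 0.00278), fell without overlap of the groups. Among 23 Toll-like and related receptors and adaptors 2 rose and 4 fell (none higher and 3 lower with the IL-4 libraries alone). The LPS co-receptor Cd14 had 38.9 ± 4.24 FPKM in K223R and 54.5 ± 3.86 FPKM in WT IL-4 libraries (SD, n = 4 each; -0.48, adjusted p = 0.00383), and Tlr13, which senses bacterial ribosomal RNA (-0.30, adjusted p = 0.00213), and Cd180 (-0.40, adjusted p = 0.00738) fell as well.

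Surface receptors split. Of 11 C-type lectins and adaptors 3 rose and 2 fell (5 higher and 2 lower after median-ratio scaling or without K223R replicate 2). Clec4a3 had 221, 163, 256 and 213 FPKM in K223R and 111, 134, 153 and 144 FPKM in WT IL-4 libraries, separate ranges with K223R replicate 2 lowest of its group (0.64, adjusted p = 0.00972), and Clec4b1 differed by 0.90 (adjusted p = 0.00527), whereas the inhibitory receptor Clec12a (-0.44, adjusted p = 0.000269) and Clec4d (-0.30, adjusted p = 0.00739) fell. The high-affinity IgG receptor Fcgr1 had 13.8, 9.12, 12.2 and 10.8 FPKM in the K223R IL-4 libraries, against 17.7, 24.1, 20.2 and 21.8 FPKM in the WT IL-4 libraries, without overlap (-0.82, adjusted p = 0.00041). Its signalling chain Fcer1g fell slightly (-0.24, adjusted p = 0.0118). Of 21 paired myeloid receptors and adaptors none rose and 6 fell. Gpr183, the oxysterol-sensing chemotactic receptor, had 2.59, 1.8, 2.51 and 2.99 FPKM in K223R and 6.18, 5.38, 6.51 and 5.19 FPKM in WT IL-4 libraries, a clear gap (-0.98, adjusted p = 5.43e-05). For the clearance of apoptotic cells, 2 of 19 genes rose and 3 fell, beside 5.17% and 10.2% of all genes. Pros1, which encodes a bridging ligand of the receptors Tyro3 and Mertk, rose (0.60, adjusted p = 0.000181). Axl, a receptor of the same family whose ligand is Gas6, fell to 8.32 ± 0.8 FPKM in K223R against 12.7 ± 0.811 FPKM in WT IL-4 libraries (SD, n = 4 each; adjusted p = 0.00123), and the lipid-binding checkpoint receptor Havcr2 (Tim-3) fell too (-0.83, adjusted p = 0.000956). After median-ratio scaling Fcer1g (adjusted p = 0.0746) was no longer called.

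Matrix remodelling genes moved both ways, where 5.17% of all genes rose and 10.2% fell. Of 32 tested, 6 rose and 5 fell (7 higher and 2 lower after median-ratio scaling, 5 and 1 with the IL-4 libraries alone, 5 and 3 without K223R replicate 2). Besides Fn1, the proteases Mmp9 (0.99, adjusted p = 0.00154) and Mmp19 (0.48, adjusted p = 0.000321) and the protease inhibitors Timp1 (0.60, adjusted p = 0.00629) and Timp2 rose. Timp2 had 244, 247, 249 and 224 FPKM in the K223R IL-4 libraries, against 153, 165, 172 and 151 FPKM in the WT IL-4 libraries. The 2 groups were separate and each was tight (0.59 ± 0.06, SE; adjusted p = 2.94e-05). The plasminogen activator Plau had 43.9, 60.1, 35.5 and 45.9 FPKM in K223R and 74.6, 91.5, 110.2 and 93.4 FPKM in WT IL-4 libraries (-0.99, adjusted p = 0.00277). Spp1, osteopontin, had 857, 1307, 835 and 1142 FPKM in K223R and 1422, 1482, 1467 and 1459 FPKM in WT IL-4 libraries (-0.52, adjusted p = 0.0146). Both fell without overlap, and K223R replicate 2 was the highest K223R library in both. Of 17 gene identifiers for 16 listed leukocyte integrins 4 rose and 3 fell (2 higher and 2 lower with the IL-4 libraries alone). The integrin chains Itgb2 (0.24, adjusted p = 0.00722) and Itgad (0.40, adjusted p = 0.0056) rose with Itgax, and Itgal, the alpha chain of LFA-1, fell (-0.68, adjusted p = 0.002). Spp1 (adjusted p = 0.0579) and Itgb2 (adjusted p = 0.0503) were not called when the IL-4 libraries were fitted alone. After quantile normalization Spp1 (adjusted p = 0.0665) was no longer called.

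Because Sirt3 acts in mitochondria, genes of that organelle were examined by function. The 13 mRNAs encoded by mitochondrial DNA held 5.37%, 3.23%, 5.77% and 5.87% of the summed FPKM in the K223R IL-4 libraries, against 7.60%, 8.21%, 7.22% and 8.08% in the WT IL-4 libraries. The ranges did not overlap, and K223R replicate 2 was far below the other K223R libraries. In untreated cells the share was 6.62% ± 0.309 in K223R and 7.78% ± 0.544 in WT libraries (SD, n = 4 each). Those ranges, 6.25% to 6.90% and 6.99% to 8.23%, did not overlap either. Of the 13 mRNAs 10 fell and none rose, with a median of -0.73, and 9 of the 10 were still called after median-ratio scaling and 4 with the IL-4 libraries alone. Without K223R replicate 2, 11 of the 13 fell. The cytochrome oxidase subunit mRNA mt-Co2 had 2033, 1653, 2045 and 2113 FPKM in the K223R IL-4 libraries, against 2543, 2998, 2931 and 2950.2 FPKM in the WT IL-4 libraries. The groups were separate (-0.55 ± 0.086, SE; adjusted p = 0.000925). The complex I subunit mRNA mt-Nd1 had 1462, 850.0, 1592 and 1573 FPKM in K223R and 2142, 2401, 2368 and 2505 FPKM in WT IL-4 libraries (-0.82, adjusted p = 0.00222). The ATP synthase subunit mRNA mt-Atp6 had 337, 84.2, 375 and 383 FPKM in K223R and 488, 580.3, 513 and 585 FPKM in WT IL-4 libraries (-1.09, adjusted p = 0.044), with K223R replicate 2 far below its group. The labels name poly(A) selection or removal of ribosomal RNA without saying which library had which, and its part in this result was not tested. In a fit of the IL-4 libraries alone, mt-Atp6 (adjusted p = 0.162) missed the threshold. The threshold was missed after median-ratio scaling by mt-Atp6 (adjusted p = 0.053). mt-Atp6 was not called without WT IL-4 replicate 1, 2, 3 or 4 (adjusted p up to 0.0898).

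Among the other mitochondrial mRNAs, mt-Nd3 (-0.94, adjusted p = 0.00225), mt-Atp8 (-0.71, adjusted p = 0.00334), mt-Co3 (-0.80, adjusted p = 0.0075) and mt-Cytb (-0.76, adjusted p = 0.00907) fell, as did mt-Nd2 (-0.93, adjusted p = 0.0257) and mt-Co1 (-0.43, adjusted p = 0.0257). Without the untreated libraries in the fit, mt-Co3 (adjusted p = 0.0647), mt-Cytb (adjusted p = 0.0738), mt-Nd2 (adjusted p = 0.123) and mt-Co1 (adjusted p = 0.125) were no longer called. Leaving out a library ended the call of mt-Nd2, namely WT IL-4 replicate 2 or 4 (adjusted p up to 0.0565). The call of mt-Co1 was lost without WT IL-4 replicate 2 or 4 (adjusted p up to 0.0742).

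Of 37 nuclear genes of respiratory complex I none rose and 3 fell (none higher and 1 lower after median-ratio scaling or with the IL-4 libraries alone), with a median of -0.12. Of 41 nuclear genes of complexes II to V none rose and 4 fell (3 higher and 3 lower after median-ratio scaling, none and 1 with the IL-4 libraries alone, 1 and 3 without K223R replicate 2), with a median of -0.04. The shares that fell are near the 10.2% of all genes. Ndufs8, an iron-sulfur subunit of complex I (-0.33, adjusted p = 0.0061), Cycs, cytochrome c (-0.39, adjusted p = 0.00337), and Atp5c1, the gamma subunit of ATP synthase, were among them. Atp5c1 had 83.3, 64.2, 90.5 and 91.1 FPKM in K223R and 111, 121, 97.3 and 104 FPKM in WT IL-4 libraries (-0.40, adjusted p = 0.014), and its untreated difference was of similar size (-0.42, adjusted p = 0.37). Of 78 mitochondrial ribosomal protein genes none rose and 14 fell (none higher and 7 lower after median-ratio scaling, none and 3 with the IL-4 libraries alone), with a median of -0.15, among them Mrps33 (-0.21, adjusted p = 0.00386), Mrpl20 (-0.30, adjusted p = 0.00722) and Mrpl52 (-0.40, adjusted p = 0.00739). In the list of mitochondrial dynamics, import and biogenesis 1 of 29 rose and 6 fell (1 higher and 3 lower after median-ratio scaling, none and 2 with the IL-4 libraries alone). The matrix chaperone partners Hspd1 and Hspe1, which share a promoter region, fell to 62.5 ± 1.88 and 52.1 ± 2.44 FPKM in K223R against 83.6 ± 5.77 and 71.5 ± 2.98 FPKM in WT IL-4 libraries (SD, n = 4 each; adjusted p = 0.000212 and 0.00027). The import receptor gene Tomm20 fell as well (-0.28, adjusted p = 0.00629). A fit on the IL-4 libraries alone did not call Atp5c1 (adjusted p = 0.0749), Mrps33 (adjusted p = 0.0507) and Tomm20 (adjusted p = 0.0598).

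Of 22 genes for proteins that Sirt3 is known to deacetylate 3 rose and 2 fell (7 higher and 1 lower after median-ratio scaling, 1 and none with the IL-4 libraries alone), with a median of 0.02, beside 5.17% and 10.2% of all genes. The acetyl-CoA synthetase Acss1 rose to 8.74 ± 0.774 FPKM in K223R against 6.21 ± 0.934 FPKM in WT IL-4 libraries (SD, n = 4 each; adjusted p = 0.00422), and the matrix superoxide dismutase Sod2 fell (-0.26, adjusted p = 0.011). In the tricarboxylic acid cycle 1 of 25 genes rose, Aco1, the cytosolic aconitase that doubles as an iron sensor (0.22, adjusted p = 0.00701), and none fell (4 higher and none lower after median-ratio scaling, 2 and 1 without K223R replicate 2). In fatty acid oxidation 0 of 22 genes were called by limma (4 higher and none lower after median-ratio scaling). Etfb, a subunit of the electron transfer flavoprotein, differed by -0.037 (adjusted p = 0.686), or 0.02 after median-ratio scaling, and Hadha, of the trifunctional protein, by 0.10 (adjusted p = 0.152). Of 18 genes around glutamine and alpha-ketoglutarate 3 rose and 1 fell (6 higher and 1 lower after median-ratio scaling). The transaminase Got1 rose without overlap, with 23, 28.1, 26 and 25.8 FPKM in K223R and 21.1, 19.4, 18.8 and 18.3 FPKM in WT IL-4 libraries (0.39, adjusted p = 0.00151). The NADP-dependent dehydrogenase Idh1 rose too (0.28, adjusted p = 0.0119), and asparagine synthetase Asns fell (-0.52, adjusted p = 0.00606). Of 10 sirtuin and NAD salvage genes none rose and 1 fell (1 higher and 1 lower after median-ratio scaling or without K223R replicate 2), Nampt, the rate-limiting enzyme of NAD salvage (-0.40, adjusted p = 0.00403). Of 16 genes for SUMO proteins and proteases Sumo2 (-0.30, adjusted p = 0.0274) and the protease gene Senp2 (-0.19, adjusted p = 0.0458) fell and none rose (none higher and 1 lower after median-ratio scaling or without K223R replicate 2, none and none with the IL-4 libraries alone). Among 27 antioxidant and NRF2 target genes 1 rose and 4 fell (2 higher and 2 lower after median-ratio scaling, 1 and 1 with the IL-4 libraries alone, 2 and 6 without K223R replicate 2). Prdx4, the peroxiredoxin of the endoplasmic reticulum, rose (0.35, adjusted p = 0.00388). Those that fell include Gclc, the catalytic subunit of glutathione synthesis, which had 7.86 ± 0.694 FPKM in K223R and 12.2 ± 1.03 FPKM in WT IL-4 libraries (SD, n = 4 each; adjusted p = 8.53e-05). Sod2 (adjusted p = 0.0597), Sumo2 (adjusted p = 0.116) and Senp2 (adjusted p = 0.097) were not called when the IL-4 libraries were fitted alone. Median-ratio scaling ended the call of Senp2 (adjusted p = 0.139). The threshold was missed after quantile normalization by Senp2 (adjusted p = 0.107). Sumo2 was not called without WT IL-4 replicate 1, 3 or 4 (adjusted p up to 0.0731). Leaving out a library ended the call of Senp2, namely K223R IL-4 replicate 1, 2, 3 or 4 or WT IL-4 replicate 1, 3 or 4 (adjusted p up to 0.117).

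Glycolytic genes moved both ways, where 5.17% of all genes rose and 10.2% fell. Of 23 tested members 8 fell and 3 rose (3 higher and 5 lower after median-ratio scaling, 3 and 4 with the IL-4 libraries alone), with a median of -0.09. Ldha, the lactate dehydrogenase subunit that favours lactate production, had 165, 219.6, 149 and 166 FPKM in the K223R IL-4 libraries, against 233, 234, 245 and 233 FPKM in the WT IL-4 libraries. Its groups were separate, with K223R replicate 2 close to the WT level (-0.44, adjusted p = 0.00334). Ldhb, the subunit that favours pyruvate, moved the other way, with 21.7 ± 1.72 FPKM in K223R and 14.2 ± 2.05 FPKM in WT IL-4 libraries (SD, n = 4 each; adjusted p = 0.00236). The glucose transporter gene Slc2a1 (-0.40, adjusted p = 0.00383), the lactate exporter gene Slc16a3 (-0.37, adjusted p = 0.00193) and the phosphofructokinase gene Pfkl (-0.43, adjusted p = 0.000949) fell. Slc2a6, a lysosomal hexose transporter (0.74, adjusted p = 0.000606), and the phosphofructokinase gene Pfkp (0.36, adjusted p = 0.000956) rose. Of 15 hypoxia-response genes 4 fell and none rose. P4ha1, a collagen prolyl hydroxylase, had 32.3 ± 1.45 FPKM in K223R and 43.4 ± 0.729 FPKM in WT IL-4 libraries (SD, n = 4 each; adjusted p = 0.000107), Vegfa fell by 0.58 on the log2 scale (adjusted p = 0.00845) and the oxygen sensor gene Egln1 by 0.17 (adjusted p = 0.015). Of 13 genes of the pentose phosphate pathway and of NADPH supply 3 fell and 1 rose (1 higher and 1 lower after median-ratio scaling or with the IL-4 libraries alone). The pentose phosphate gene among them was Taldo1, transaldolase, at 180.3 to 192 FPKM in K223R and 229.7 to 277 FPKM in WT IL-4 libraries (-0.41, adjusted p = 0.000517). Mthfd1 (-0.25, adjusted p = 0.0143) and Shmt2 (-0.19, adjusted p = 0.0487), which fell, are enzymes of folate metabolism, and the gene that rose was Idh1. In a fit of the IL-4 libraries alone, Egln1 (adjusted p = 0.1), Mthfd1 (adjusted p = 0.0803) and Shmt2 (adjusted p = 0.141) missed the threshold. After median-ratio scaling Egln1 (adjusted p = 0.0724), Mthfd1 (adjusted p = 0.0556) and Shmt2 (adjusted p = 0.179) were no longer called. Quantile normalization ended the call of Egln1 (adjusted p = 0.0576), Mthfd1 (adjusted p = 0.0624) and Shmt2 (adjusted p = 0.184). Shmt2 was not called with no filter on low values. The call of Shmt2 was lost without K223R IL-4 replicate 1, 3 or 4 or WT IL-4 replicate 1, 2, 3 or 4 (adjusted p up to 0.128).

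A group of genes of the secretory pathway rose. Of 28 tested chaperones and enzymes of the endoplasmic reticulum and its unfolded protein response 12 rose and none fell, with a median of 0.18. The same number rose after median-ratio scaling, and 8 with the IL-4 libraries alone. Sdf2l1, a partner of the chaperone BiP, had 170.0, 171, 174 and 163 FPKM in the K223R IL-4 libraries, against 118, 117, 123 and 114 FPKM in the WT IL-4 libraries. The groups were tight and separate (0.52 ± 0.044, SE; adjusted p = 1.44e-05). The disulfide isomerase Pdia4 had 137, 160.4, 156 and 147 FPKM in K223R and 114, 108, 93.6 and 98.9 FPKM in WT IL-4 libraries (0.53, adjusted p = 0.000692). Pdia3 (0.28, adjusted p = 0.00171), Pdia6 (0.24, adjusted p = 0.00387), the mannosidase-like Edem1 of ER-associated degradation (0.28, adjusted p = 0.00178), Creld2 (0.35, adjusted p = 0.00366), Dnajc3 (0.27, adjusted p = 0.00373), Hsp90b1, the chaperone GRP94 (0.25, adjusted p = 0.00543), and Calr, calreticulin (0.16, adjusted p = 0.0485), rose by less. Hspa5, BiP itself, varied more than 2-fold within each group, with 257, 132, 270.2 and 230.1 FPKM in K223R and 215, 95.7, 90.5 and 156 FPKM in WT IL-4 libraries (0.71, adjusted p = 0.174), and calnexin, Canx, differed by 0.042 (adjusted p = 0.505). Without the untreated libraries in the fit, Calr (adjusted p = 0.163) was no longer called. Calr was not called with no filter on low values. Calr was not called without K223R IL-4 replicate 1, 2 or 4 or WT IL-4 replicate 1, 2, 3 or 4 (adjusted p up to 0.112).

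The ER stress element, CCAAT and CCACG with 9 bases between them, is bound by NF-Y and ATF6. It was rare, present on either strand in the windows of 0.137% of 27025 genes. It occurred in 5 of the 12 called ER genes with a window (Hsp90b1, Creld2, Dnajc3, Pdia6 and Calr) and in 3 of the 11 others (Hspa5, Canx and Syvn1). The start of Hsp90b1 in GENCODE M21 lies 65 bases before the RefSeq start, and that of Dnajc3 lies behind it. The stretches before the first annotated starts of Hsp90b1 (chr10:86705510-86705694, minus strand), Creld2 (chr15:88819396-88819645, plus strand) and Dnajc3 (chr14:118937682-118937931, plus strand) show it in capitals (GRCm38.p6), with 2 matches in Hsp90b1:
Hsp90b1 promoter: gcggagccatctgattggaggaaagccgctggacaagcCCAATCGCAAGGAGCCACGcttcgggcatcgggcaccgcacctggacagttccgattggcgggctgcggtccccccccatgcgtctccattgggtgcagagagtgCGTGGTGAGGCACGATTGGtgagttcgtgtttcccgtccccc
Creld2 promoter: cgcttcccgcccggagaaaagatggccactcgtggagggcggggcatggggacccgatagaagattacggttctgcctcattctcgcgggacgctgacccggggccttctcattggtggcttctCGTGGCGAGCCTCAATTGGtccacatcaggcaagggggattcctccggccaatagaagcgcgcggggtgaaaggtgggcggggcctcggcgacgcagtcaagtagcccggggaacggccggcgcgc
Dnajc3 promoter: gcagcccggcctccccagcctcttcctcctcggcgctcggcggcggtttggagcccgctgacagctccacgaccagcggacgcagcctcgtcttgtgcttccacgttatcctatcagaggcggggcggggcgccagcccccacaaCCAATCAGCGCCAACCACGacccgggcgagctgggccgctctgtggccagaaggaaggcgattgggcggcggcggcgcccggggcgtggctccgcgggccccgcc

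Of 34 lysosomal hydrolases and membrane proteins 11 rose and none fell (4 higher and none lower with the IL-4 libraries alone, 12 and 1 without K223R replicate 2), with a median of 0.11. Glb1, the lysosomal beta-galactosidase, had 82.3, 80.0, 79.2 and 84.7 FPKM in the K223R IL-4 libraries, against 54.7, 58.6, 60.5 and 58.5 FPKM in the WT IL-4 libraries. The lowest K223R library was well above the highest WT library (0.48 ± 0.048, SE; adjusted p = 2.54e-05). Man2b1, the alpha-mannosidase, rose by a similar amount (0.47, adjusted p = 0.00018), as did Psap, the precursor of the saposins, which had 6280.4, 8058, 5699.6 and 5819 FPKM in K223R and 4315, 4566, 4788 and 4869 FPKM in WT IL-4 libraries (0.47, adjusted p = 0.00303). Lgmn, the asparaginyl endopeptidase legumain, also rose (0.33, adjusted p = 0.00259). Of the 17 subunits of the proton pump that acidifies the lysosome none rose and 2 fell (none higher and 1 lower after median-ratio scaling or with the IL-4 libraries alone). After quantile normalization Psap (adjusted p = 0.068) was no longer called.

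Lipid genes moved both ways, where 5.17% of all genes rose and 10.2% fell. Of 16 LXR targets and cholesterol exporters 4 rose and 2 fell (4 higher and 1 lower after median-ratio scaling or without K223R replicate 2, 3 and none with the IL-4 libraries alone). The cholesterol exporter gene Abca1 had 42.9, 36.1, 43.5 and 39.5 FPKM in the K223R IL-4 libraries, against 22.5, 23.9, 24 and 26.1 FPKM in the WT IL-4 libraries. Abcg1, which loads cholesterol onto HDL, had 138, 136, 152 and 138 FPKM in K223R and 107, 90.6, 93.3 and 99.7 FPKM in WT IL-4 libraries. Neither overlapped, with log2 differences of 0.72 (adjusted p = 0.000749) for Abca1 and 0.53 (adjusted p = 0.00386) for Abcg1. The phospholipid transfer protein gene Pltp rose (0.73, adjusted p = 0.00631), whereas the apolipoprotein gene Apoe fell, with 1043, 1152, 1009 and 926 FPKM in K223R and 1106, 1435, 1964 and 1762 FPKM in WT IL-4 libraries, ranges that overlapped (-0.57, adjusted p = 0.0169). Of 23 cholesterol synthesis genes 3 rose, among them Mvd (0.51, adjusted p = 0.000408) and Hmgcs1 (0.24, adjusted p = 0.00667), and 1 fell (3 higher and none lower after median-ratio scaling or with the IL-4 libraries alone). Of 25 genes for fatty acid binding, uptake and storage 5 fell and 1 rose (2 higher and 4 lower after median-ratio scaling). The fatty acid binding protein gene Fabp7 had 18, 11.1, 6.94 and 8.8 FPKM in the K223R IL-4 libraries, against 25.3, 21.5, 54.3 and 36.1 FPKM in the WT IL-4 libraries. Both groups were uneven but separate (-1.52, adjusted p = 0.00178). Hilpda, an inhibitor of triglyceride breakdown on lipid droplets (-0.77, adjusted p = 0.000999), and Lpl, lipoprotein lipase (-0.38, adjusted p = 0.004), fell, and the desaturase gene Scd2 rose (0.49, adjusted p = 0.0122). A fit on the IL-4 libraries alone did not call Apoe (adjusted p = 0.0739). The threshold was missed after quantile normalization by Apoe (adjusted p = 0.0821). Leaving out a library ended the call of Apoe, namely WT IL-4 replicate 3 or 4 (adjusted p up to 0.0529).

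In ganglioside synthesis St3gal5, the enzyme that makes GM3, had 5.02, 3.75, 3.25 and 3.34 FPKM in the K223R IL-4 libraries, against 8.85, 9.34, 10.7 and 10.7 FPKM in the WT IL-4 libraries, a wide gap (-1.18 ± 0.13, SE; adjusted p = 7.15e-05). That list of 23 held 5 genes that rose and 4 that fell (6 higher and 1 lower after median-ratio scaling, 3 and 1 with the IL-4 libraries alone), beside 5.17% and 10.2% of all genes. Of 16 eicosanoid genes 3 rose and 4 fell. Cyp4f18, which hydroxylates leukotriene B4, had 20.4, 13.6, 19.5 and 16.4 FPKM in K223R and 2.59, 6.06, 8.02 and 5.38 FPKM in WT IL-4 libraries (1.56, adjusted p = 0.00178). The microsomal epoxide hydrolase Ephx1 had 115, 83.2, 124 and 105 FPKM in K223R and 38.6, 48.5, 54.4 and 48 FPKM in WT IL-4 libraries (1.15, adjusted p = 3.26e-05). Both were higher in all K223R libraries, whereas Hpgds, the prostaglandin D2 synthase (-0.71, adjusted p = 0.000109), and the phospholipase gene Pla2g4a (-0.35, adjusted p = 0.00167) were lower in all of them. Of 16 iron genes 2 rose and 1 fell (2 higher and none lower with the IL-4 libraries alone), beside 5.17% and 10.2% of all genes. Tfrc, the transferrin receptor, rose to 118 ± 13.9 FPKM in K223R against 65.8 ± 8.28 FPKM in WT IL-4 libraries (SD, n = 4 each; adjusted p = 0.000145), and Slc25a37, the mitochondrial iron importer, fell (-0.52, adjusted p = 0.00513). The retinaldehyde dehydrogenase Aldh1a2, which makes retinoic acid, had 3.24, 1.95, 4.83 and 3.71 FPKM in K223R and 0.893, 0.961, 1.24 and 0.52 FPKM in WT IL-4 libraries, again without overlap (1.19, adjusted p = 0.000205). Slc25a37 (adjusted p = 0.0566) was not called when the IL-4 libraries were fitted alone.

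A group of genes of protein synthesis fell by small amounts. Of 76 cytosolic ribosomal protein genes 27 fell and none rose (none higher and 8 lower after median-ratio scaling, none and 14 with the IL-4 libraries alone), with a median of -0.20, or -0.14 after median-ratio scaling. Among all genes 10.2% fell, and after median-ratio scaling 605 of 9531 did. Rpl5 had 92 to 108 FPKM in K223R and 123 to 134 FPKM in WT IL-4 libraries (-0.30, adjusted p = 0.00283), and Rpl14 (-0.27, adjusted p = 0.005) and Rps15a (-0.40, adjusted p = 0.00547) fell as well. Ribosomal protein genes have many pseudogene copies, which makes their values uncertain. Of 31 proteasome genes, which serve protein breakdown, 5 fell, such as Psmc6 (-0.17, adjusted p = 0.0179), beside 10.2% of all genes, and none rose (none higher and none lower after median-ratio scaling or with the IL-4 libraries alone). Of 21 genes of arginine and polyamine metabolism 7 fell and 1 rose (2 higher and 6 lower after median-ratio scaling). The spermidine and spermine synthases Srm (-0.47, adjusted p = 0.00452) and Sms (-0.36, adjusted p = 0.002), the decarboxylase Amd1, which supplies their aminopropyl donor (-0.30, adjusted p = 0.00228), Azin1, which protects ornithine decarboxylase (-0.46, adjusted p = 0.00403), and Dhps, which uses spermidine in the first step towards hypusine (-0.30, adjusted p = 0.00268), fell without overlap of the groups. Azin1 had 14.4, 15, 15.4 and 14.9 FPKM in K223R and 24.8, 21.5, 16.7 and 21.4 FPKM in WT IL-4 libraries. Ass1, which rebuilds arginine from citrulline, rose (0.55, adjusted p = 0.00495). The stress-response factor Atf4 had 55.4, 56, 56.2 and 55.4 FPKM in the K223R IL-4 libraries, against 71.8, 64.8, 73.9 and 68.8 FPKM in the WT IL-4 libraries, with no overlap and little spread (-0.32, adjusted p = 0.000408). Of 26 genes of its list, which holds Atf4 targets and amino acid enzymes, 5 fell and 2 rose (2 higher and 3 lower after median-ratio scaling, 1 and 2 with the IL-4 libraries alone), among the risen the stress sensor gene Sesn2 (0.37, adjusted p = 0.00629). In a fit of the IL-4 libraries alone, Psmc6 (adjusted p = 0.0633) missed the threshold. The threshold was missed after median-ratio scaling by Psmc6 (adjusted p = 0.0981). Quantile normalization ended the call of Psmc6 (adjusted p = 0.0584).

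The genes of 3 Id proteins, inhibitors of helix-loop-helix factors that BMP and TGF-beta signals regulate, fell. Of 18 genes in that list 5 fell and none rose (2 higher and 4 lower after median-ratio scaling, none and 3 with the IL-4 libraries alone). Id2 had 70.0, 56.5, 57.2 and 63.6 FPKM in the K223R IL-4 libraries, against 93.8, 102, 150.0 and 123 FPKM in the WT IL-4 libraries. WT replicate 3 was the highest of the 8, and the groups did not overlap (-0.89, adjusted p = 0.000571). Id3 had 26.5, 14.1, 4.9 and 7.5 FPKM in K223R and 23.6, 27.9, 75.5 and 44.9 FPKM in WT IL-4 libraries (-1.73, adjusted p = 0.01), and Id1 had 1.08, 1.43, 0.528 and 0.477 and 2.56, 2.24, 6.9 and 2.82 FPKM (-1.23, adjusted p = 0.0112). WT replicate 3 was again the highest for both, and Id3 overlapped. The pseudoreceptor gene Bambi fell (-0.55, adjusted p = 0.000187). Immediate early genes were even, with 4 of 21 up and 4 down (1 higher and 4 lower with the IL-4 libraries alone). Jund (0.31, adjusted p = 0.00553) and the antiproliferative gene Btg2 (0.33, adjusted p = 0.0066) rose, and the phosphatase gene Dusp2 (-0.67, adjusted p = 0.00403) and Zfp36, the mRNA-destabilising protein tristetraprolin (-0.29, adjusted p = 0.00569), fell. Without the untreated libraries in the fit, Id3 (adjusted p = 0.0722) and Jund (adjusted p = 0.0509) were no longer called.

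Interferon-stimulated genes showed no shared direction. Of 37 tested 2 rose and 4 fell (2 higher and 2 lower after median-ratio scaling, 2 and 1 with the IL-4 libraries alone, 3 and 2 without K223R replicate 2), close to the shares of all genes. Usp18, the protease that removes ISG15, had 5.99, 4.96, 6.36 and 4.81 FPKM in K223R and 1.84, 2.03, 2.44 and 2.89 FPKM in WT IL-4 libraries, without overlap (0.99, adjusted p = 0.000106), and Samhd1 rose too (0.44, adjusted p = 0.000646), whereas Irf7 (-0.54, adjusted p = 0.00878) and Ifi35 (-0.29, adjusted p = 0.0125) fell. Of 10 interferon-inducible GTPases 2 rose and none fell (4 higher and none lower without K223R replicate 2). Gbp2 had 42.6, 18.6, 41 and 31.8 FPKM in the K223R IL-4 libraries, against 8.25, 12.3, 12.5 and 12.3 FPKM in the WT IL-4 libraries, separate groups with K223R replicate 2 lowest of its own (1.43, adjusted p = 0.000869), and Gbp3 followed (0.99, adjusted p = 0.000773). A fit on the IL-4 libraries alone did not call Ifi35 (adjusted p = 0.0681).

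Outside these lists, the translation elongation factor isoform gene Eef1a2 rose (1.28, adjusted p = 0.000321) and Marcksl1, a substrate of protein kinase C (-1.29, adjusted p = 0.000321), Mapk1ip1 (-1.07, adjusted p = 0.000999), the neutral amino acid transporter gene Slc7a8 (-0.83, adjusted p = 0.00276) and the metallothionein gene Mt2 (-0.91, adjusted p = 0.0115) fell, all without overlap of the groups. Marcksl1 had 1.41, 1.12, 1.65 and 1.62 FPKM in the K223R IL-4 libraries, against 4.17, 7.2, 3.54 and 5.58 FPKM in the WT IL-4 libraries. Of 123 tested solute carriers outside mitochondria 8 rose and 8 fell (13 higher and 7 lower after median-ratio scaling, 5 and 5 with the IL-4 libraries alone, 14 and 8 without K223R replicate 2), beside 5.17% and 10.2% of all genes. Of 236 zinc finger genes 3 rose and 12 fell (6 higher and 7 lower after median-ratio scaling, none and 2 with the IL-4 libraries alone, 5 and 10 without K223R replicate 2). Both zinc finger counts are smaller shares than those of all genes. Of 33 cell cycle genes 1 rose and 3 fell (2 higher and 2 lower after median-ratio scaling), beside 5.17% and 10.2% of all genes. Mt2 (adjusted p = 0.0547) was not called when the IL-4 libraries were fitted alone.

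**Figure D4:**
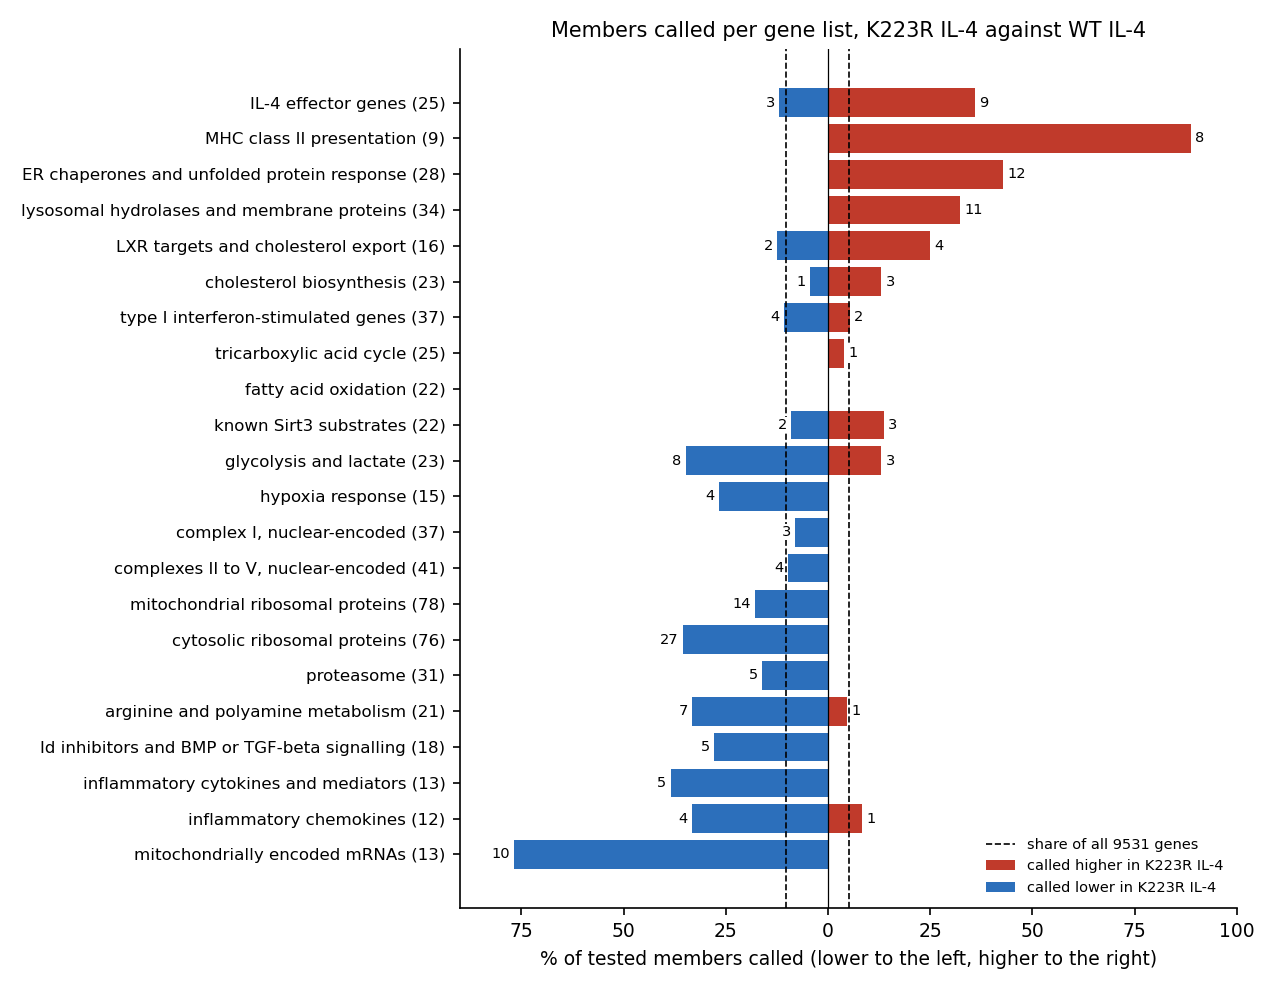
Percentage of tested members called lower (left) and higher (right) in K223R IL-4 cells for 22 gene lists, with the number tested in brackets and the number called beside each bar. Dashed lines mark the shares of all 9531 genes, 10.2% lower and 5.17% higher. The lists were chosen with earlier results of these data known, so the bars are description only. MHC class II, ER and lysosomal genes extend to the right and mitochondrially encoded mRNAs, cytokines, ribosomal and glycolytic genes to the left.

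Markers of other cell types were mostly low. Of 12 listed neutrophil markers 5 were tested, summing to 39.9 to 62.8 FPKM in K223R IL-4 libraries and 53.0 to 103.6 FPKM in WT IL-4 libraries, and S100a8 fell (-0.65, adjusted p = 0.0408). The call of S100a8 was lost without any of 6 single libraries (adjusted p up to 0.115), with the IL-4 libraries alone, with median-ratio scaling or with quantile normalization. The tested monocyte, B, T and NK, erythroid and stromal markers, 1 for each cell type, had at most 1.96 FPKM apiece in any K223R IL-4 library and 2.06 FPKM in any WT IL-4 library, and the monocyte marker Ly6c2 reached at most 0.201 and 0.113 FPKM. The platelet chemokine gene Pf4, which macrophages also express, had 249, 324, 252 and 283 FPKM in K223R and 92.7, 237, 203 and 166 FPKM in WT IL-4 libraries (0.74, adjusted p = 0.163). The part of these markers in the other results was not tested.

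The same genotype comparison in untreated cells, which shares no library with the one in IL-4 cells, called 0 of 9531 genes with limma, and 694 genes had an unadjusted p under 0.05, against 2914 in IL-4 cells. All scalings also gave 0 calls there. Of the 493 genes that rose with IL-4, 73.4% had a positive difference in untreated cells, and of the 972 that fell, 67.6% had a negative one, where 58.1% of all genes had the same sign in both. The labels do not say whether untreated and IL-4 libraries of the same number came from the same culture. In WT cells each IL-4 library correlated best with the untreated library of its number, so both comparisons may not be independent. The median untreated difference was 0.06 for the first set and -0.04 for the second. A missing call in untreated cells does not show that the effect differed, so the difference of the differences, the interaction of genotype and IL-4, was tested. It was called for 213 genes (2.23%), 79 positive (0.829%) and 134 negative (1.41%). Among them were 77 of the 493 genes that rose (15.6%) and 132 of the 972 that fell (13.6%). The remaining 4 were Fmnl2, Gtf3c5, Slx4ip and Tec, named after their values were seen.

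Positive interactions included genes of alternative activation and matrix. In Chil4 the interaction was 2.27 (adjusted p = 9.84e-06): IL-4 moved it by 4.12 in K223R cells and 1.85 in WT cells. Untreated Chil4 averaged 0.0016 FPKM in K223R and 0.0024 FPKM in WT libraries. On the log2(FPKM + 1) scale its interaction therefore repeats its difference in IL-4 cells, and a fold induction cannot be read from it. Fn1 had an interaction of 2.20 (adjusted p = 0.00403), with IL-4 responses of 4.89 in K223R and 2.69 in WT cells. Its untreated means were also low, 0.793 FPKM in K223R and 0.546 FPKM in WT libraries, where this scale compresses differences. Chil3 responded by 8.44 in K223R and 7.06 in WT cells (interaction 1.38, adjusted p = 0.0474), Ear2 by 4.76 and 3.19 (adjusted p = 0.0261) and Mgl2 by 6.30 and 5.15 (adjusted p = 0.0178). The responses of Mgl2 were nearly as large as its IL-4 levels on this scale. Its interaction (1.15) was therefore close to its difference in IL-4 cells (1.11), and the limit given for Chil4 holds for it too. Retnla, at 10.48 in K223R and 8.94 in WT cells, was not called in the interaction (adjusted p = 0.244). Of the 25 IL-4 effector genes 7 were called in it, of the 9 MHC class II genes none, and of the 13 mitochondrially encoded mRNAs none. The median untreated difference of the class II list was 0.35 and that of the mitochondrial list -0.26.

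Negative interactions included Fabp7 (-1.61, adjusted p = 0.0365), Plau (-1.21, adjusted p = 0.0267), St3gal5 (-1.07, adjusted p = 0.00968), Id2 (-1.06, adjusted p = 0.00968), Tgm2 (-0.92, adjusted p = 0.00247) and Ccl4 (-0.97, adjusted p = 0.0217). Tgm2 responded to IL-4 by -0.28 in K223R and by 0.64 in WT cells, opposite directions. It had 91.6, 99, 90.5 and 93.1 FPKM in untreated K223R and 78.6, 83.8, 105 and 97.9 FPKM in untreated WT libraries, which overlapped. The number of interaction calls rested on single libraries: without K223R IL-4 replicate 2 it was 142 positive and 212 negative, without K223R IL-4 replicate 3 it was 42 and 80, without WT IL-4 replicate 4 it was 46 and 87, without WT IL-4 replicate 3 it was 49 and 81, without untreated K223R replicate 2 it was 49 and 74, without untreated K223R replicate 3 it was 61 and 76, and without untreated K223R replicate 4 it was 52 and 94. Treating untreated and IL-4 libraries of the same number as 1 culture gave 137 and 256.

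**Figure D5:**
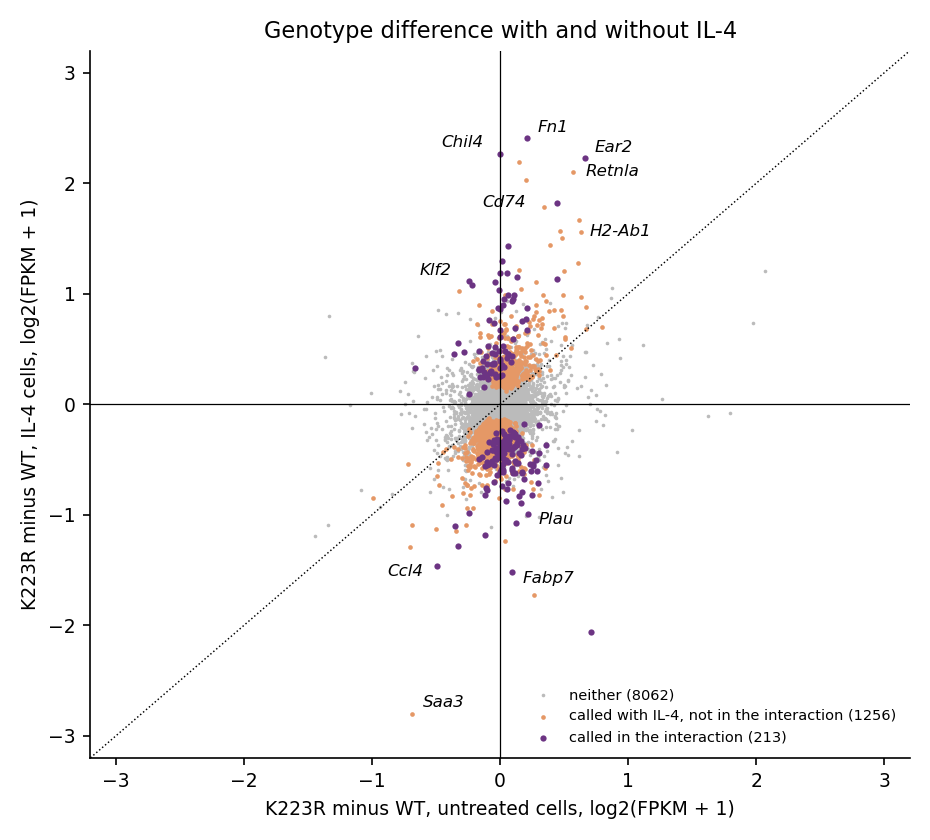
Genotype difference in IL-4 cells (vertical axis) against that in untreated cells (horizontal axis), both K223R minus WT on the log2(FPKM + 1) scale, for 9531 genes. Purple points are the 213 genes called in the interaction, orange points are other genes called in IL-4 cells, and the dotted line marks equal differences. Fn1, Chil4 and Klf2 lie high and close to 0 on the horizontal axis, and differences span a wider range along the vertical axis. Untreated Chil4 was close to undetected, which fixes its place on the horizontal axis.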

How the data were processed

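Total RNA of bone-marrow-derived macrophages was extracted with Trizol and made into stranded libraries, per the labels' protocols. The deposited values, 1 table per library, are taken as FPKM made by the authors. The headers name no unit, so TPM of a larger gene set is possible, and no label or header names an aligner or a counter. Of 10900 genes matched by ID to GENCODE M21 (GRCm38), 9977 (91.5%) have the same coordinates in the files, so the files were read as GRCm38, from another release. Gene positions are printed as the files give them. Depth is unknown.

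From these values log2(FPKM + 1) was computed. Genes with at least 1 FPKM in at least 4 of the 8 IL-4 libraries were kept, and 4 group means were fitted to all 16 libraries with limma 3.58.1 (R 4.3.3) with an intensity trend, at a Benjamini-Hochberg adjusted p under 0.05 over 9531 genes. No further scaling was applied. On simulated data of 9531 genes the IL-4 comparison recovered 81.2% of genes changed by 0.5, 93.8% by 1 and 100% by 2 on the log2 scale, with 12 false calls. The simulated noise was independent between genes, with equal spread in all groups. It held no library-wide shift and no deviating library, so these rates do not measure the reliability of the calls in the real data. Alternatives were median-ratio scaling, quantile normalization, a pseudocount of 0.1, other filters, the IL-4 libraries alone, blocks for replicate or culture, and leaving out each library.

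The members and gene lists were chosen with earlier results of these data known. Named genes were the known M2 markers and Sirt3, the called genes with the largest differences, up to 4 called members of each list by adjusted p (or the 2 most abundant where none was called), and the largest interactions. Other list members were named after their values were seen, and a few genes are not reported here. Of the called genes, 37 have no proper symbol and are counted only. Promoter sequences are from RefSeq (GRCm38.p6), and the Sirt3 codon from GENCODE. Tables were handled with Python 3.11.15, pandas 2.3.3 and numpy 2.4.6, and figures drawn with matplotlib 3.10.9.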

Additional observations from a re-analysis of the deposited data

Results flagged for a closer look

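A library was marked where its gap to the nearest of the other 3 of its group, divided by the range of the group, passed Dixon's critical value for 4 samples. This held for 34 of 390 groups of 4 values (8.72%), where chance gives about 1 in 20, and 15 of them fell on K223R IL-4 replicate 2. In K223R IL-4 replicate 1 the marked value was Dkc1 at 2.49 FPKM. In K223R IL-4 replicate 2 the marked values were Calr at 679.7 FPKM, Chil3 at 6055 FPKM, Chil4 at 23.12 FPKM, Gclc at 6.823 FPKM, Jund at 152.6 FPKM, Rps15a at 35.81 FPKM, Snrpd2 at 9.833 FPKM, mt-Atp6 at 84.18 FPKM, mt-Co1 at 2937 FPKM, mt-Co2 at 1653 FPKM, mt-Co3 at 831.0 FPKM, mt-Cytb at 842.6 FPKM, mt-Nd1 at 850.0 FPKM and mt-Nd2 at 312.3 FPKM. The same library had a median correlation of 0.9789 with the rest of its group. In K223R IL-4 replicate 3 the marked values were Abcg1 at 151.9 FPKM and Aco1 at 31.86 FPKM. In K223R IL-4 replicate 4 the marked values were Hmgcs1 at 22.71 FPKM, Sms at 7.324 FPKM and Snrpd3 at 11.36 FPKM. In WT IL-4 replicate 1 the marked values were Ccl24 at 1.592 FPKM, Gbp2 at 8.247 FPKM, Klf2 at 4.442 FPKM, Mapk1ip1 at 7.425 FPKM, Retnla at 713.5 FPKM, Vegfa at 7.738 FPKM and mt-Co2 at 2543 FPKM. In WT IL-4 replicate 2 the marked value was Bhlhe41 at 6.716 FPKM. In WT IL-4 replicate 3 the marked values were Chil4 at 3.282 FPKM, Hadha at 22.26 FPKM, Ldha at 245.2 FPKM and Mthfd1 at 4.585 FPKM. In WT IL-4 replicate 4 the marked value was Tomm20 at 18.45 FPKM. 

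For 56 genes named here the genotype difference in IL-4 cells differed from that in untreated cells, as the interaction of genotype and IL-4 in limma's test over all genes (adjusted p under 0.05). Over all 9531 genes it was called for 213 (2.23%). The named genes were chosen partly by their interactions and mostly by their calls in IL-4 cells, so their number is description only. The limit of the scale given for Chil4, Fn1 and Mgl2 applies here as well. Positive interactions, on the log2 scale, were those of Chil4 (2.27), Fn1 (2.20), Ear2 (1.57), Chil3 (1.38), Gbp2 (1.37), Klf2 (1.36), Ccl24 (1.30), Aldh1a2 (1.19) and Mgl2 (1.15). Smaller positive ones were those of Ephx1 (1.01), Usp18 (0.87), Slc2a6 (0.78), Ccl9 (0.75), Pros1 (0.61), Sdf2l1 (0.56), Got1 (0.53), Pdia4 (0.51) and Timp2 (0.48). The list of positive ones ends with Btg2 (0.48) and Glb1 (0.44). Negative interactions were those of Fabp7 (-1.61), Plau (-1.21), Mapk1ip1 (-1.19), Slc7a8 (-1.07), St3gal5 (-1.07), Id2 (-1.06), Havcr2 (-0.97), Ccl4 (-0.97) and Ccl2 (-0.95). Weaker negative ones were those of Tgm2 (-0.92), Dusp2 (-0.86), Hilpda (-0.82), Axl (-0.81), Irf7 (-0.80), Hpgds (-0.77), Ccl3 (-0.75), Gpr183 (-0.74) and Dkc1 (-0.72). Further down came Fcgr1 (-0.70), Il13ra1 (-0.63), Gclc (-0.59), Nampt (-0.57), Taldo1 (-0.48), Slc2a1 (-0.45), Nop58 (-0.45), Nhp2 (-0.45) and Nop56 (-0.44). The smallest were those of Bambi (-0.44), Pfkl (-0.44), Lpl (-0.44), Ifi35 (-0.41), P4ha1 (-0.39), Pla2g4a (-0.36), Hspd1 (-0.35), Amd1 (-0.34) and Atf4 (-0.29).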

How the results depend on the processing

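The filters, the pseudocount and the treatment of replicates left the numbers of genes called higher and lower in IL-4 cells within 1.5 times. So did quantile normalization and leaving out single IL-4 libraries. Median-ratio scaling and the fit of the IL-4 libraries alone did not. With the IL-4 libraries fitted alone 252 genes were called higher and 430 lower, on fewer residual degrees of freedom. Median-ratio scaling gave 801 and 605, by construction centring the differences. The numbers past 2-fold moved with the pseudocount, and at 0.1 they were 46 higher and 27 lower. Without single IL-4 libraries between 377 and 580 genes were called higher and between 728 and 973 lower. The positive interactions numbered 132 after median-ratio scaling and 137 with the culture as a random effect, and the negative ones 256 with the culture, the cause of which was not tested. Leaving out single libraries gave 42 to 142 positive and 74 to 212 negative interactions, 0 to 2 lower calls in untreated cells, and 0 or 1 gene called the same way in both genotype comparisons. The mean Sirt3 level difference was 0.0191 FPKM after median-ratio scaling, 0.0083 without K223R IL-4 replicate 2 and 0.0513 without WT IL-4 replicate 3, and ranged from -0.1385 to 0.0513 over left-out libraries.

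Among 191 named genes, 179 were called, 169 with median-ratio scaling, 167 with quantile normalization, 144 with the IL-4 libraries alone, and 164 under every left-out IL-4 library. The log2 difference turned sign for Stat6 (0.0107), Etfb (0.0244), Sirt3 (0.0165) and Mrc1 (0.0354) after median-ratio scaling, for Sirt3 (0.0397) and Ctss (-0.2078) after quantile normalization, for Sirt3 without K223R IL-4 replicate 2 (0.0103) or WT IL-4 replicate 3 (0.0345), and for Mrc1 without WT IL-4 replicate 2 (0.0367). Over left-out libraries the log2 difference of Sirt3 reached -0.0830 and that of Mrc1 -0.1003 at the low end. The causes were not tested. The replicate block gave 488 higher and 960 lower calls and 71 positive and 114 negative interactions. Same-numbered K223R and WT libraries did not deviate together (r -0.072 to 0.0387 in IL-4 cells), and none correlated best with its own number. Untreated and IL-4 libraries of the same number had r of 0.0902 to 0.3116 in WT cells, where all 4 IL-4 libraries correlated best with their own number, and of -0.0460 to 0.1149 in K223R cells, where 1 of the 4 did. This is a hint from the data that the labels do not state. Sequencing depth is unknown, and so is the precision of low values.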

Other observations

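Genes of small RNA-protein particles outside the lists of the report fell together. These sets were put together after the values were seen, so their counts support nothing. All 8 tested core proteins of the box C/D and box H/ACA particles, which guide the modification of ribosomal RNA, fell in K223R IL-4 cells, against 10.2% of all genes. The pseudouridine synthase gene Dkc1 had 2.49, 2.03, 2.06 and 2.02 FPKM in K223R and 4.24, 3, 3.93 and 4.28 FPKM in WT IL-4 libraries (-0.62, adjusted p = 0.000214). Its partners Nop10 (-0.74, adjusted p = 0.00838), Nhp2 (-0.51, adjusted p = 2.94e-05) and Gar1 (-0.51, adjusted p = 0.0265), the methyltransferase gene Fbl (-0.33, adjusted p = 0.00707) and its partners Nop56 (-0.48, adjusted p = 0.000106), Nop58 (-0.54, adjusted p = 1.87e-05) and Snu13 (-0.47, adjusted p = 0.000481) made up the rest. After median-ratio scaling 8 of the 8 were called, without K223R IL-4 replicate 2 and with the IL-4 libraries alone 7. In a fit of the IL-4 libraries alone, Nop10 (adjusted p = 0.0647) missed the threshold. The call of Gar1 was lost without K223R IL-4 replicate 1 or 2 or WT IL-4 replicate 3 or 4 (adjusted p up to 0.0751).

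Of the 7 Sm proteins, which form a ring on spliceosomal small nuclear RNAs, 6 fell. Snrpg had 22, 17.3, 25.4 and 24 FPKM in K223R and 29.9, 31, 34.1 and 31.8 FPKM in WT IL-4 libraries (-0.51, adjusted p = 0.00274). Snrpd1 (-0.44, adjusted p = 0.00123), Snrpd2 (-0.51, adjusted p = 0.00616), Snrpd3 (-0.22, adjusted p = 0.0256), Snrpe (-0.53, adjusted p = 0.014) and Snrpf (-0.60, adjusted p = 0.00616) were the others, and Snrpb differed by -0.22 (adjusted p = 0.149). After median-ratio scaling 5 of the 7 were called, and without K223R IL-4 replicate 2 the count was 6. Without the untreated libraries in the fit, Snrpd3 (adjusted p = 0.086) was no longer called. Median-ratio scaling ended the call of Snrpd3 (adjusted p = 0.104). After quantile normalization Snrpd3 (adjusted p = 0.0953) was no longer called. Snrpd3 was not called without K223R IL-4 replicate 1 or 3 or WT IL-4 replicate 3 (adjusted p up to 0.0736).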
